A study of Rattus norvegicus with 2 samples.

Results

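The genes examined were 7 ligand genes of the epidermal growth factor (EGF) family (Areg, Ereg, Hbegf, Btc, Tgfa, Epgn and Nrg1), 2 receptor genes (Egfr and Erbb2) and Errfi1, which encodes a feedback inhibitor of the receptor. This set was chosen with earlier results of these data known. Its probes were taken by name: every non-control probe on the array whose gene name is one of these. That gave 20 probes for the 10 genes, of 45598 probes on the array. The cells were IEC6, a non-transformed epithelial line established from rat small intestine. Cells grown in dishes were exposed to sodium trisulfide (Na2S3), an inorganic polysulfide, for 60 min at a labelled dose of 100 µM, or received water for 60 min. The treatment protocol names a low-serum medium for the exposure. The treatment protocol states 100 mM, and this conflict with the 100 µM of the sample label was not resolved. RNA of each group went to 1 single-colour Agilent array, so there are no replicates, no difference has a p-value, and "higher" and "lower" describe these 2 arrays.

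EGF-family ligands are made as membrane-anchored precursors that metalloproteases of the ADAM family cut free. The released ligand binds receptor tyrosine kinases of the ErbB family, which pair up, phosphorylate each other and signal through RAS and ERK, PI3K and other arms. Several ligand genes and Errfi1 are themselves switched on by that signalling, so the pathway holds both positive and negative feedback. In the intestinal epithelium EGF receptor signalling is known for its part in crypt cell proliferation and in repair after injury.

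A signal is the scanner software's processed intensity, in intensity units. A scaled signal is that intensity divided by the 75th percentile of all non-control probes on its array, which was 478 on the Na2S3 array and 413 on the water array. The log2 ratio is the scaled signal on the Na2S3 array over that on the water array. Each member probe was read by 1 spot per array, and the spot error given with a ratio is 1 SD, estimated from repeat spots of other probes at similar signal. It covers the reading of spots and not the variation between cultures. Signals of different probes cannot be compared as levels of their genes. Probes well above background numbered 22349 on the Na2S3 array and 22560 on the water array.

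Areg was the only member at least 2-fold higher in Na2S3-treated cells. Errfi1 and Hbegf were between 1.5-fold and 2-fold higher, Nrg1 and Egfr had smaller positive ratios, and Btc, Erbb2 and Tgfa lay closer to no difference. Ereg and Epgn stayed at background level on both arrays. None of the members was at least 1.5-fold lower (0 of 8 measured). Beside these counts, the shares of all 13062 measured genes were 0.942% (123 genes) past 2-fold and 2.96% (387 genes) past 1.5-fold in the same direction, with 1 and 3 of the 8 measured members. At least 2-fold lower were 0.62% of genes and at least 1.5-fold lower 3.41%. A log2 ratio above 0 was found for 7 of the 8 measured members and for 43.4% of genes. The median log2 ratio was 0.36 over the 8 measured members and -0.04 over all measured genes.

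**Figure D1:**
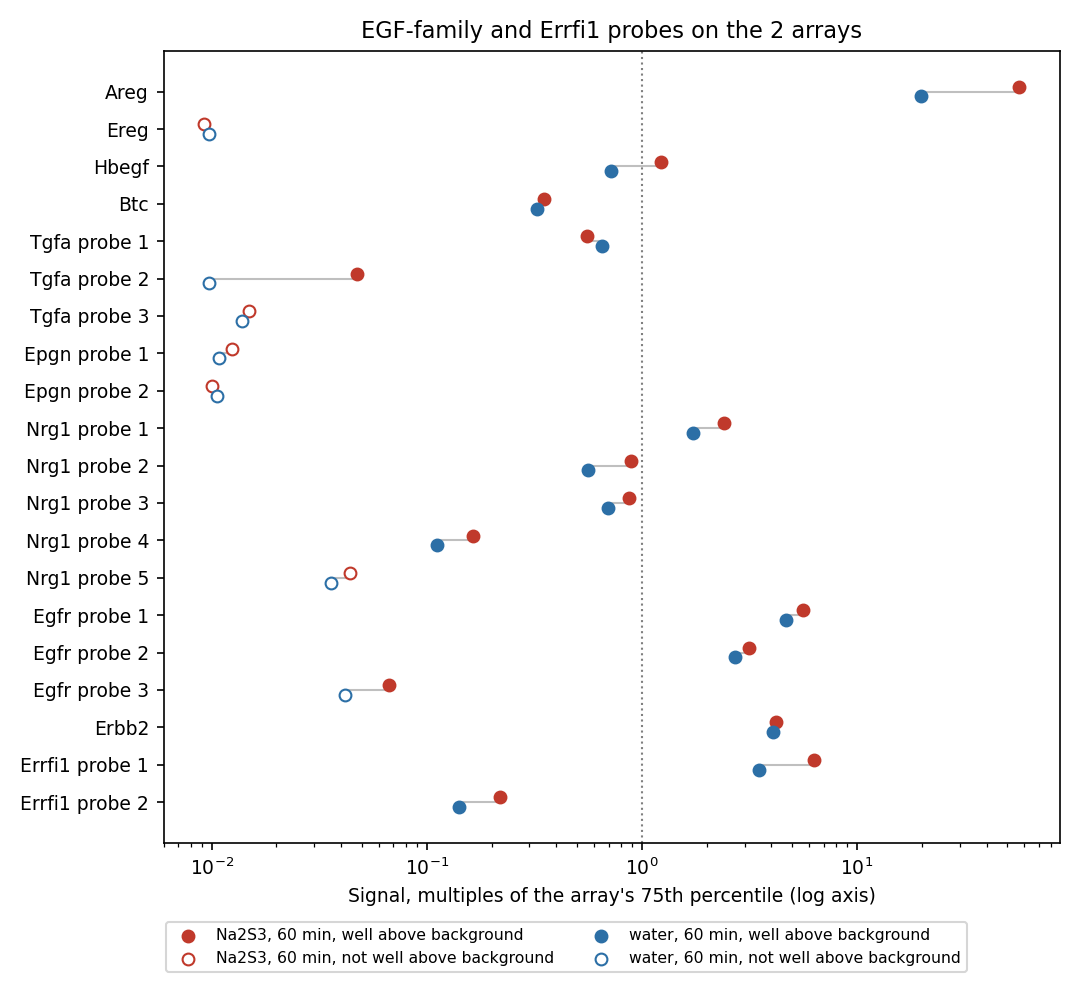
Scaled signal of the 20 member probes, in multiples of the array's 75th percentile on a log axis, with the Na2S3 array in red and the water array in blue; open circles are signals not well above background. The Areg probe stands at 56.6 on the Na2S3 array and 19.8 on the water array, while the Ereg and Epgn probes lie near 0.01 on both.

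Areg encodes amphiregulin, a ligand of the EGF receptor. Its single probe read 27040 intensity units on the Na2S3 array and 8206 on the water array, with the software's own error at 2704 units on the Na2S3 array and 821 on the water array. The scaled signals were 56.6 on the Na2S3 array and 19.8 on the water array. The Na2S3 signal was thus 2.85-fold that of the water array, a log2 ratio of 1.51 with a spot error of 0.11. Both signals lay far above background, which was 66 units around the spot on the Na2S3 array and 72 on the water array. Among all measured genes this ratio ranked 44 of 13062 from the highest. Of the 2786 genes with a mean signal of 4096 or more, 1.33% were at least 1.5-fold higher, as Areg was. The median log2 ratio of these bright genes was -0.08, and after loess or quantile normalization, which adjust for signal, the Areg ratio was 1.62 and 1.63. The probe starts at base 961 of its transcript and lies on the minus strand at chr14:18466438-18466497, in the rn4 coordinates of the files. The first 30 of its 60 bases are shown, since this 1 oligo carries the largest difference among the measured members.
Areg probe, first 30 bases: aagtgacgaatcggtccttctttcagcgaa

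Hbegf encodes heparin-binding EGF-like growth factor, a ligand of the EGF receptor and ErbB4. Its probe read 585 intensity units on the Na2S3 array and 297 on the water array, over a local background of 55 units on the Na2S3 array and 59 on the water array. The scaled signals of 1.22 on the Na2S3 array and 0.72 on the water array gave a 1.70-fold higher value in Na2S3-treated cells, a log2 ratio of 0.77 with a spot error of 0.13. This ranked 212 of 13062 from the highest, in a band of signal from 256 to 1024 where 2.29% of genes were at least 1.5-fold higher. Over the normalizations tried the ratio ran from 0.69 to 0.78, so it remained at least 1.5-fold and under 2-fold in each. The probe lies on the minus strand at chr18:29143627-29143686 (rn4) and starts at base 1430 of its transcript.
Hbegf probe, first 30 bases: atttattgtctgtctacatttcagaagatg

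Nrg1 encodes neuregulin, a ligand of ErbB3 and ErbB4 made in many isoforms, and 4 of its 5 probes were measured on both arrays. All 4 had a higher signal on the Na2S3 array. The brightest, named for transcript NM_031588, read 1148 units on the Na2S3 array and 717 on the water array, a log2 ratio of 0.47 with a spot error of 0.12. The probe of NM_001271124 read 423 units on the Na2S3 array and 233 on the water array (log2 ratio 0.66, spot error 0.16). The probe of NM_001271123 read 417 units on the Na2S3 array and 289 on the water array (0.32, spot error 0.13). The dimmest measured probe, named U02323, read 78.6 units on the Na2S3 array and 45.9 on the water array (0.57, spot error 0.26). The probes thus shared a direction and ran from 0.32 to 0.66 with an SD of 0.14, beside an SD of 0.24 between different probes of a gene over 3181 genes. The U02323 probe stood at 0.22 with normexp background correction, and the remaining probe did not pass the background flag on either array. As a gene, by its brightest probe, Nrg1 was 1.39-fold higher and ranked 597 of 13062.

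Btc encodes betacellulin, a ligand of the EGF receptor and ErbB4. Its probe read 168 intensity units on the Na2S3 array and 135 on the water array, and after scaling the log2 ratio was 0.11, smaller than its spot error of 0.18. The software did not locate this spot on the Na2S3 array and read it at its nominal place, as it did for 12.4% of non-control spots there. Tgfa encodes transforming growth factor alpha, another EGF receptor ligand, and was the only measured member with a negative ratio. Its brightest probe read 267 units on the Na2S3 array and 270 on the water array, a log2 ratio of -0.23 with a spot error of 0.13. That is within the SD of 0.24 between different probes of a gene. Another Tgfa probe was well above background on the Na2S3 array alone, with 22.6 units there and 4.03 on the water array. The lower bound of its difference was only about 1.07-fold. The remaining Tgfa probe passed that flag on neither array.

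Ereg and Epgn encode epiregulin and epigen, further ligands of the EGF receptor. The Ereg probe read 4.42 intensity units on the Na2S3 array and 4.0 on the water array. The 2 Epgn probes read 5.92 and 4.8 units on the Na2S3 array, against 4.48 and 4.36 units on the water array. The lowest signals counted as well above background were 20.5 units on the Na2S3 array and 18.3 on the water array, so no fold is given for either gene. The Ereg probe spans 999 genomic bases in rn4 although it has 60, so its sequence runs across an intron.

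In the RefSeq annotation of the GRCr8 assembly, Btc, Areg, Ereg and Epgn are consecutive protein-coding genes on chromosome 14. Their probes on the array lie within 340981 bases in rn4. Within this ligand cluster Areg had a log2 ratio of 1.51 and Btc, its neighbour, one of 0.11, while Ereg on its other side and Epgn were not well above background. The high Areg ratio was therefore not shared by Btc, the only other measured gene of the cluster, whose spot was not located on the Na2S3 array. Genes outside the cluster were looked up after the member values were seen. Past Epgn, Mthfd2l (a dim probe) had 1.17 and Cxcl1 1.48. On the other side of Btc, Parm1 had -0.12, Rchy1 -0.21 and Thap6 0.04. The difference between the Areg and Btc ratios is many times the spot error of either, which leaves out the variation between cultures. By the software's own errors, the error of the log2 ratio was larger, at 0.20 for Areg and 0.21 for Btc.

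Egfr encodes the EGF receptor itself, and 2 of its 3 probes were measured on both arrays. The brightest read 2665 intensity units on the Na2S3 array and 1928 on the water array, a log2 ratio of 0.26 with a spot error of 0.14. The other measured probe read 1502 units on the Na2S3 array and 1123 on the water array (0.21, spot error 0.13). Both probes were thus about as much higher on the Na2S3 array, at 1.20-fold and 1.16-fold, and each ratio is less than 2 times its spot error. A probe for a predicted transcript read 31.8 units on the Na2S3 array and was not well above background on the water array at 17.2 units. The lower bound of its difference was 1.499-fold, just under 1.5-fold. With normexp background correction the log2 ratio of that dim probe was 0.01. Erbb2 encodes the receptor that has no known ligand of its own and pairs with the other ErbB receptors. Its probe read 2011 units on the Na2S3 array and 1691 on the water array, which after scaling is a log2 ratio of 0.04, smaller than its spot error of 0.13.

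Errfi1 encodes an adaptor, also called MIG6 or RALT, that binds the kinase domain of active EGF receptor and shuts it off. Its bright probe read 3025 intensity units on the Na2S3 array and 1447 on the water array, with software errors of 303 units on the Na2S3 array and 145 on the water array. The scaled signals were 6.33 on the Na2S3 array and 3.50 on the water array, a 1.81-fold higher value in Na2S3-treated cells and a log2 ratio of 0.86 with a spot error of 0.14. The ratio ranked 169 of 13062, in a band of signal from 1024 to 4096 where 1.72% of genes were at least 1.5-fold higher. The dim probe of the same transcript read 105 units on the Na2S3 array and 58.7 on the water array, a log2 ratio of 0.63 with a spot error of 0.26. The software did not locate the dim spot on the water array, as for 14.5% of non-control spots there. The probes differed by less than the spot error of the dim one. With normexp background correction the dim probe stood at 0.31, below 1.5-fold, and the bright one at 0.85. The probes start at bases 2738 and 1481 of transcript NM_001014071 and lie on the plus strand at chr5:168025720-168025779 and chr5:168024463-168024522 (rn4). Their first 30 bases are shown because these oligos read the same transcript with signals of very different size.
Errfi1 bright probe, first 30 bases: agggacaccgctgccatgtcccaacaagct
Errfi1 dim probe, first 30 bases: aagtattttagggaagcagaagaagcaaac

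**Figure D2:**
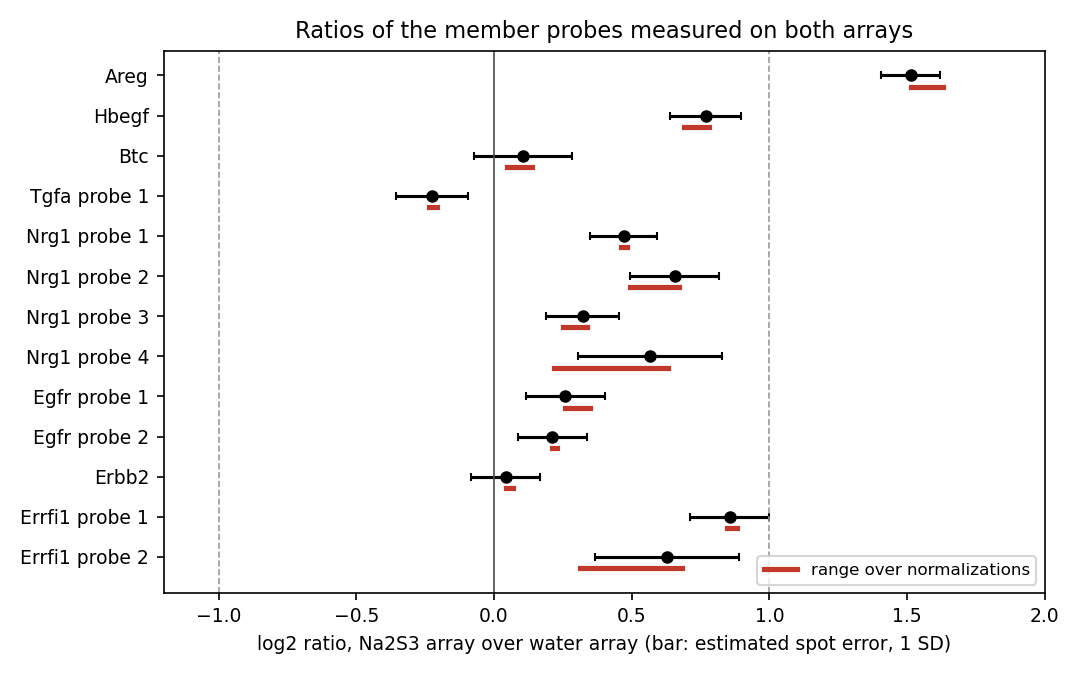
The log2 ratio, Na2S3 array over water array, of the 13 member probes measured on both arrays; points are the reported ratios, black bars 1 SD of spot error, red bars the range over the normalizations tried, and dashed lines mark 2-fold. Of the 13 probes 12 lie above 0, Areg alone lies past 2-fold, and the dim probes of Nrg1 and Errfi1 have the widest red bars.

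The bases just upstream of the annotated start of the 2 members with the highest ratios are printed for comparison, from the RefSeq promoter table of GRCr8. Areg is on the minus strand at chr14:17265642-17265791 and Errfi1 on the plus strand at chr5:166606691-166606840, each with 150 bases ending at the base before the start. Capitals mark TGACG or CGTCA, the short site of a cyclic AMP response element (CRE) that CREB and ATF proteins are known to bind, and the TATA box TATAAA.
Areg promoter: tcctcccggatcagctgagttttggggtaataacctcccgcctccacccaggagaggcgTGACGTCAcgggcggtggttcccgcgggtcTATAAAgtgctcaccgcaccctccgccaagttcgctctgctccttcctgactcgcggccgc
Errfi1 promoter: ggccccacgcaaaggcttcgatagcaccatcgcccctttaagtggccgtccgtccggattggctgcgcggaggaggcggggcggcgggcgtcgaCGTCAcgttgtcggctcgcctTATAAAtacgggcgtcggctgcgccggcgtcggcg

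A promoter was listed for 8 of the 10 members, and the 250 bases before each start were searched on both strands. The full CRE, TGACGTCA, was found in the Areg promoter alone among them, 91 bases before the start, and in 1.59% of 33469 promoters. It holds the short site on both strands. TATAAA was found in the promoters of Areg and Errfi1, at 61 and 35 bases before the start, and in 12.9% of all promoters. The short site TGACG was found in the promoters of Areg, Errfi1 (56 bases before the start) and Hbegf (193 bases before the start), and in 18.2% of all promoters. This motif was added after the Errfi1 sequence had been read. The AP-1 motif TGANTCA (6.34% of all promoters), the ATF4 and C/EBP motif TGATGNAA (3.4%) and the antioxidant response element core TGACNNNGC (10.1%) were found in 0 of the 8, and the GC box GGGCGG (30.5%) in 6 of the 8. A match is a description of letters in this window and does not show that a factor bound there.

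**Figure D3:**
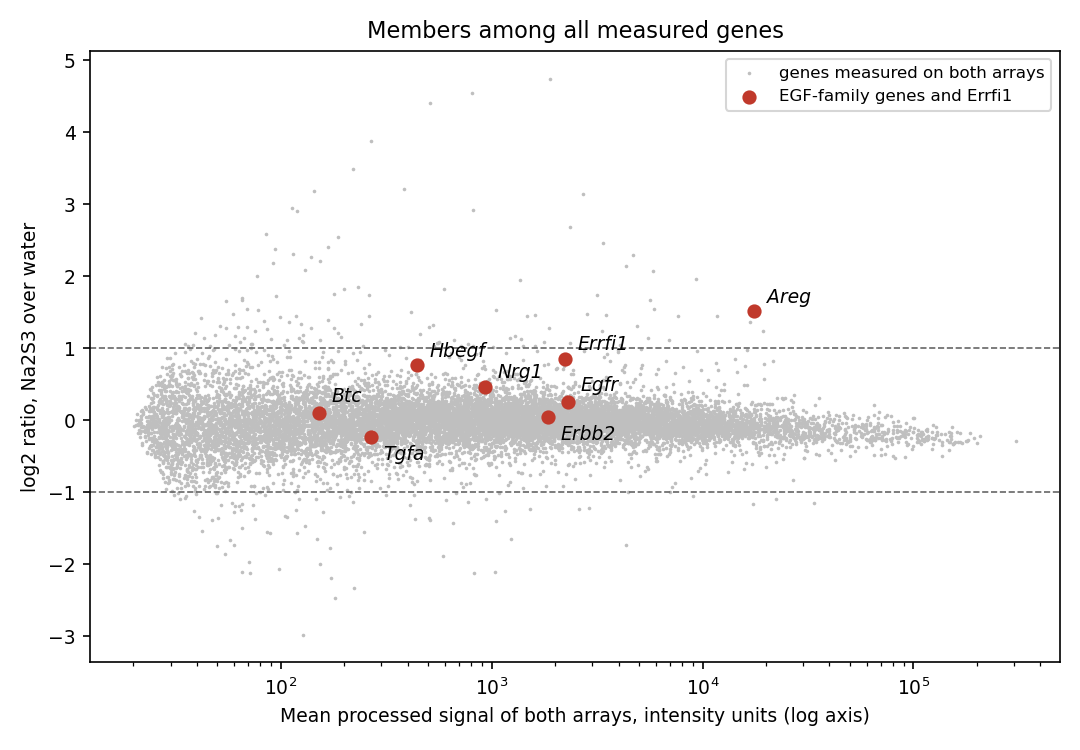
The log2 ratio, Na2S3 over water, against the mean processed signal of both arrays on a log axis, for the 13062 genes measured on both arrays in grey and the 8 measured members in red; dashed lines mark 2-fold. Areg lies above the 2-fold line at bright signal, Errfi1 and Hbegf lie just under it, and Btc, Tgfa and Erbb2 lie within the grey band around 0.

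Genes that work around these members were grouped into lists by role. Of the rest of the family, Nrg2 and Erbb3 were measured, at log2 ratios of 0.01 and -0.01, whose order and sign are within their spot errors of 0.13 and 0.26. Egf, Nrg4 and Erbb4 did not pass the background flag on either array, and no probe was found under the name Nrg3. The proteases that free the ligands, with their partners, had 0 of 9 measured members past 1.5-fold either way and a median of 0.06. With 2.96% of all genes as much higher and 3.41% as much lower, 0 is near the background for lists of this size. In that list Rhbdf2, an inactive rhomboid that carries ADAM17 to the cell surface, was highest at 0.37, Adam17 itself had 0.06, and Adam15 was lowest at -0.38.

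Between the receptor and ERK, 16 genes of the cascade were measured, and their median log2 ratio was 0.09. The PI3K, PLC and STAT genes had 0 of 12 past 1.5-fold by their brightest probes, again near those background shares. Their median was 0.09, with Pik3cb highest at 0.39 and Akt1 lowest at -0.06. Other probes of Pik3cb and of Pik3r1, named after its value was seen, ran up to 0.64 and 0.65, past 1.5-fold. The brightest Pik3r1 probe had 0.16.

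Of 11 measured genes of a list on the sorting, removal and silencing of ErbB receptors, 9 had a log2 ratio above 0, beside 43.4% of all genes. The median of the list was 0.25. With the median over a gene's probes in place of the brightest probe, 8 were above 0 and the list median was 0.16. At least 1.5-fold higher were 2, beside 2.96% of all genes: Socs4, a SOCS-box gene (0.80, spot error 0.19), and Usp8 (0.68, spot error 0.12), named after its value was seen. Usp8 encodes a deubiquitinase that takes ubiquitin off sorted receptors and can spare them from degradation, so it need not act in the direction of removal. With normexp background correction 0 of the 11 passed 1.5-fold, Socs4 at 0.48 and Usp8 at 0.58. Cblb, a ubiquitin ligase gene, and Rnf41 were likewise named after their values were seen, since their probes did not share a direction. The Cblb probes gave 0.58 and -0.26. The brightest Rnf41 probe gave 0.05 and the other -0.60. By brightest probe Ptprj, a receptor phosphatase gene, was lowest at -0.36.

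Genes known to follow ERK signalling were the list that stood furthest from 0. Of 15 measured members 14 had a ratio above 0, 10 were at least 2-fold higher and 0 were at least 2-fold lower, beside 0.942% and 0.62% of all genes, and the median was 1.28. The list was chosen with earlier results of these arrays known and shares several genes with early response programmes that other signals also switch on. Its highest members were Fosl1 (4.41), Myc (2.46), Dusp5, a nuclear ERK phosphatase gene (2.41), and Phlda1 (2.27). With normexp these were smaller for the dim probes, at 3.04 for Fosl1, 1.47 for Dusp5 and 1.30 for Phlda1, while Myc had 2.40. Ccnd1 was lowest at -0.20. Fos, Dusp4 and Spry2, named after their values were seen, had 0.38, 0.48 and 0.24. With normexp these 3 dim genes stood at 0.09, 0.11 and 0.10, and 9 genes of the list were at least 2-fold higher. Etv4 was not well above background.

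**Figure D4:**
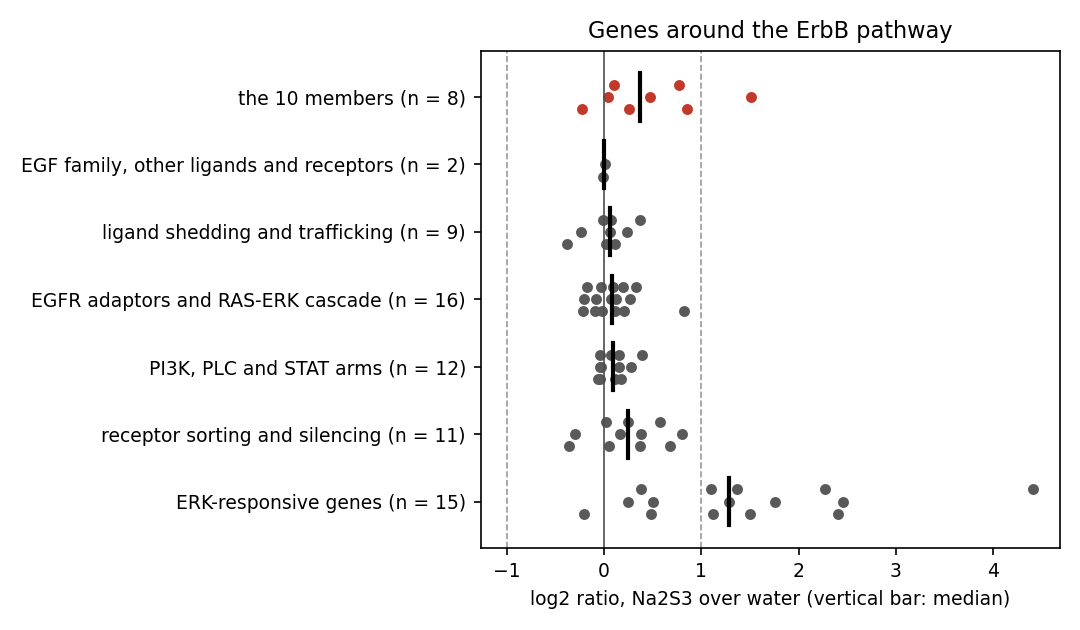
The log2 ratio, Na2S3 over water, of each measured gene in the lists around the ErbB pathway, with the members in red, other genes in grey, a black bar at each list's median and dashed lines at 2-fold. The ERK-responsive list has its median at 1.28 and the members at 0.36, while the shedding, RAS-ERK cascade and PI3K lists have medians of 0.06 to 0.09.

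The labelled cell type was checked against marker genes. Of 12 intestinal epithelial markers 8 were measured on both arrays. Among them were Cdh1 (16264 units on the Na2S3 array and 14703 on the water array) and Krt8 (18283 on the Na2S3 array and 15892 on the water array). On the Na2S3 array the other measured ones read 13559 (Tjp1), 2051 (Cdx1), 292 (Ocln), 251 (Krt19), 158 (Krt18) and 91.2 units (Cldn1). Epcam, Vil1, Krt20 and Cdx2 were not well above background. Fibroblast and mesenchymal markers were also present, with 7 of 10 measured. On the Na2S3 array they read 108685 (Col3a1), 76511 (S100a4), 70180 (Col1a1), 45377 (Vim), 29022 (Col1a2), 117 (Thy1) and 63.0 units (Acta2). Markers of both kinds were thus read, so this check does not settle the cell type. The summed scaled signal of the measured epithelial markers was 106.7 on the Na2S3 array and 106.6 on the water array, and that of the fibroblast markers was 691 on the Na2S3 array and 765 on the water array. The order of the fibroblast sums depends on the scaling, as comparisons chosen after seeing the data showed. With quantile normalization the sum was 744 on the Na2S3 array and 712 on the water array. The deposited table, whose values were close to the quantile-normalized ones, gave 742 on the Na2S3 array and 710 on the water array. The median log2 ratio of the fibroblast markers was -0.27, and -0.04 with quantile normalization. For the 2 of 7 immune markers measured the summed scaled signal was 0.23 on the Na2S3 array and 0.28 on the water array. For the 3 of 5 endothelial markers measured this sum was 6.70 on the Na2S3 array and 8.14 on the water array. By its brightest probe no marker was past 1.5-fold (0 of the 20 measured), beside 2.96% of all genes as much higher and 3.41% as much lower. Another measured probe of the fibroblast marker S100a4, named after its value was seen, had a log2 ratio of -0.84. The fibroblast markers Pdgfra, Pdgfrb and Fap, the immune markers Cd3e, Itgam, Lyz2 and Csf1r, and the endothelial markers Pecam1 and Kdr gave no signal well above background. The part of such markers in the ratios above was not tested, and in these bulk samples fewer cells of a type and less RNA per cell cannot be told apart.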

How the data were processed

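Total RNA of IEC6 cultures, 1 per group, was amplified and Cy3-labelled for Agilent arrays (per the labels' protocols); groups follow the treatment labels. The scanner files hold linear intensity, background-subtracted and spatially detrended within each array by Agilent Feature Extraction. Its version is 10.7.1.1 per the file headers and 9.5.1.1 per the submitters' processing notes. The deposited value table holds linear intensity too, and both its columns have a median of 19.3. Its normalization is not stated in the sources used here. Its ratios were close to those of quantile normalization, with the same counts of genes at least 2-fold higher (141) and lower (67).

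Outlier-flagged spots were left out (390 on the Na2S3 array, 448 on the water array), log2 signals were averaged per probe, and the 75th percentile of an array's non-control probes was subtracted from its values, which removed a shift of 0.21 between arrays. A probe is measured when more than 50% of its spots are flagged well above background on both arrays, and a gene's value is its brightest measured probe. Names came from RefSeq accessions (21109 probes) or the file (14743). Where 1 array alone read a probe, the bound divides the bright signal by the dim one, or by the dim array's lowest signal well above background where that is higher. Spot error starts from the SD within an array of probes spotted 10 times, in bins of signal. It was divided by the square root of the probe's number of spots and combined over both arrays. No test was possible with 1 array in each group, and genes were counted past 2-fold, with 1.5-fold beside it. The number of arrays limits the precision.

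The text names all members, and of each other list up to 4 genes at least 2-fold different or else the highest and lowest; Adam17 and any gene said to be so were named after their values were seen. Single genes of the RAS and ERK cascade list and 1 immune marker are not reported here. Members and lists were chosen with earlier results of these data known. The counting was tested on simulated data. Tools were Python 3.11.15 and limma 3.58.1 in R 4.3.3.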

Additional observations from a re-analysis of the deposited data

How the results depend on the processing

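The alternatives were normexp background correction, scaling to the median of probes above background, quantile normalization, loess, the deposited table, no filter on dim probes, a stricter filter, the median over a gene's probes and a 1.5-fold rule. The count of members at least 2-fold higher was 1 in each except under the 1.5-fold rule, where it was 3, and the count at least 2-fold lower was 0 in all. All 8 measured members kept their sign, and the 3 at least 1.5-fold higher (Areg, Errfi1 and Hbegf) were so in each normalization. Several settings were weak checks for these 8. The filters left their values unchanged, scaling to the median hardly moved them, and the deposited table nearly repeated quantile normalization. Areg ran from 1.51 to 1.63, Errfi1 from 0.74 to 0.88, Nrg1 from 0.46 to 0.52, Egfr from 0.24 to 0.35, Btc from 0.05 to 0.14, Erbb2 from 0.04 to 0.07 and Tgfa from -0.24 to -0.21. Over all genes, those at least 2-fold higher numbered 61 with normexp, 1062 with no filter and 387 under the 1.5-fold rule, against 123, and those at least 2-fold lower numbered 31, 1545 and 446, against 81. With no filter 27235 genes entered, against 13062. Erbb3 stood at -0.10 with normexp and 0.05 with loess and has no settled direction. No paired analysis was possible because each group holds 1 array. Dim probes limit the dim readings of Errfi1, Nrg1, Egfr and Tgfa.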

Other observations

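Beyond the ligand cluster on chromosome 14, the next protein-coding genes after Epgn in the GRCr8 order were Mthfd2l, Cxcl2 and Cxcl1. Mthfd2l, a mitochondrial folate enzyme gene, read 87.2 intensity units on the Na2S3 array and 33.6 on the water array, a log2 ratio of 1.17 with a spot error of 0.26. Its probe is dim, since the lowest signal counted as well above background on the water array was 18.3 units. How far this ratio depends on the background correction is not given here. Cxcl1, a neutrophil chemokine gene, had 4330 units on the Na2S3 array and 1342 on the water array, a log2 ratio of 1.48 with a spot error of 0.05. Its value averages several spots per array, which makes this error smaller than that of a probe with 1 spot. Cxcl2 was not measured on both arrays. On the other side of Btc, Parm1 had -0.12, Rchy1 -0.21 and Thap6 0.04. These neighbours were looked up after the member values were seen.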
